A study of Mus musculus with 8 samples.

Results

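The 10 genes described here encode the contractile machinery of smooth muscle and myofibroblasts and the receptors and signalling proteins that mark pericytes and fibroblasts: Acta2, Tagln, Myh11, Cnn1, Mylk, Tpm2, Des, Rgs5, Pdgfra and Pdgfrb. They were chosen by name and matched by symbol to the Ensembl identifiers of the deposited count files, which list 47643 genes. All 10 were expressed highly enough to be among the 13829 genes tested. Kidney RNA from 8 mice was sequenced, 4 wild-type (WT) and 4 conditional knockout (cKO, genotype Six2-Cre;Cox10-fl/fl). Replicates 1, 3 and 4 of each group were 3 months old and replicate 2 of each group was 2.5 months old. The labels give neither strain nor sex, do not say whether the WT mice carried the Cre or the floxed allele, and do not say which exons of Cox10 are floxed.

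The product of Cox10, heme A farnesyltransferase, acts in the synthesis of a heme that cytochrome c oxidase cannot be assembled without. Six2-Cre acts in nephron progenitors, so the deletion is placed in the nephron epithelium, whereas pericytes, mesangial cells, vascular smooth muscle and fibroblasts descend from the renal stroma and are not its target. Pericytes wrap the peritubular capillaries and are held there by platelet-derived growth factor B acting on its receptor Pdgfrb. In kidney fibrosis, pericytes and fibroblasts can turn into myofibroblasts, cells that lay down collagen and assemble stress fibres of smooth muscle actin, whereas mature smooth muscle also carries its own myosin heavy chain and calponin. Smooth muscle and myofibroblast genes share regulators, among them serum response factor (SRF), which binds the CArG box, and the TEAD factors, which bind the MCAT element.

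Library depth ranged from 9454830 to 15838026 counts. The 2.5-month libraries were the shallowest, WT 2 at 9731334 and cKO 2 at 9454830 counts. Age, depth and the single animal cannot be told apart in them. Counts are given below scaled to a common library size (CPM). The targeted gene Cox10 stood at 20.96 ± 2.47 CPM (SD, n = 4) in WT and 18.4 ± 5.12 CPM in cKO kidneys, with cKO 2 the lowest at 10.9 CPM. Its log2 fold change, -0.19 (95% interval -0.72 to 0.34), did not pass the test (edgeR adjusted p = 0.619), and the exact two-sided permutation p was 0.514, where 0.0286 is the smallest the design allows. A total over the whole gene includes exons that may not be deleted and cells that Six2-Cre does not reach, so it does not check the labels. Reads from 4 Y-linked genes were absent from WT 1, cKO 1, cKO 2 and cKO 4 and present in the other 4 libraries, so sex is unevenly spread over the genotypes and values with a sex term are given beside the pooled ones. Of the tested genes 2310 (16.7%) differed between the genotypes, 1323 higher and 987 lower in cKO. Scaling by library size alone gave 1866 higher and 550 lower and moved the median log2 fold change of all genes to 0.145. Proximal tubule markers were abundant in every library, with the phosphate transporter Slc34a1 at 4140 ± 979 CPM in WT and 1515 ± 833 in cKO. In kidney RNA, fewer cells of a type and less RNA per cell cannot be told apart.

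Promoter windows ran from 250 bases before to 50 bases after the RefSeq start site (GRCm38.p6, the coordinates of mm10). They were used for 7 of the 10 genes, and none was used for Tagln, Myh11 and Pdgfrb. The windows were searched for the CArG box and for the MCAT element (CATTCC on either strand). The upstream 250 bases of Acta2 and Mylk are shown because Acta2 rose and Mylk did not pass the test, and capitals mark CArG boxes with 1 C or G inside the A/T core and MCAT elements.
Acta2, chr19:34255374-34255623, minus strand: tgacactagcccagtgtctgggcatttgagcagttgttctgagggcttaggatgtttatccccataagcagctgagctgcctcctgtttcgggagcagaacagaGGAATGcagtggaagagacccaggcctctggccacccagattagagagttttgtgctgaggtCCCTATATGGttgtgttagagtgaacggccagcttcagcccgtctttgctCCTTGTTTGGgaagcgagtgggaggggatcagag
Mylk, chr16:34784700-34784949, plus strand: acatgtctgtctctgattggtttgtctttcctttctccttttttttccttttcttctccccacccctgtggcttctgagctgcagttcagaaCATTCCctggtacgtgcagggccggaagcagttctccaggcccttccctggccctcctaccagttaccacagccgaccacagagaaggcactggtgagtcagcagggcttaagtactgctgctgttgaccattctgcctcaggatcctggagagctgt
In the Acta2 window, CCCTATATGG began at position -84, CCTTGTTTGG at -34 and an MCAT element at -146, where -1 is the base before the RefSeq start, and none overlapped another. The GENCODE start of Acta2 lies 217 bases further upstream than the RefSeq start, so these motifs lie inside the GENCODE gene. The Mylk window held 1 MCAT element, at -158, and the GENCODE start of that gene lies 39740 bases further upstream, so the window lies inside the GENCODE gene. The windows of Cnn1, Tpm2, Des, Rgs5 and Pdgfra held neither motif. An exact CArG box occurred in 1.63% of the 32851 promoter windows in the table, one with up to 1 C or G in the core in 9.98%, and an MCAT element in 14.7%. A match is a description of the sequence and no measurement of binding.

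Of the 10 genes, 5 rose in cKO kidneys (Acta2, Tagln, Tpm2, Des and Pdgfrb), 1 fell (Pdgfra), and Myh11, Cnn1, Mylk and Rgs5 did not pass the test. Of all genes tested 9.57% were called higher and 7.14% lower, at an edgeR adjusted p under 0.05. With a sex term the same 5 remained called higher and Pdgfra was not called, against a background of 5.17% higher and 1.63% lower. For the 5 risers all 4 cKO libraries lay above all 4 WT libraries, as they did for 13.1% of tested genes, and for Pdgfra all 4 lay below, as for 9.56%. The median log2 fold change of the 10 was 0.75, and that of all tested genes -0.01. The genes were picked with earlier results of these data known, so these shares describe the group and do not test it.

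**Figure D1:**
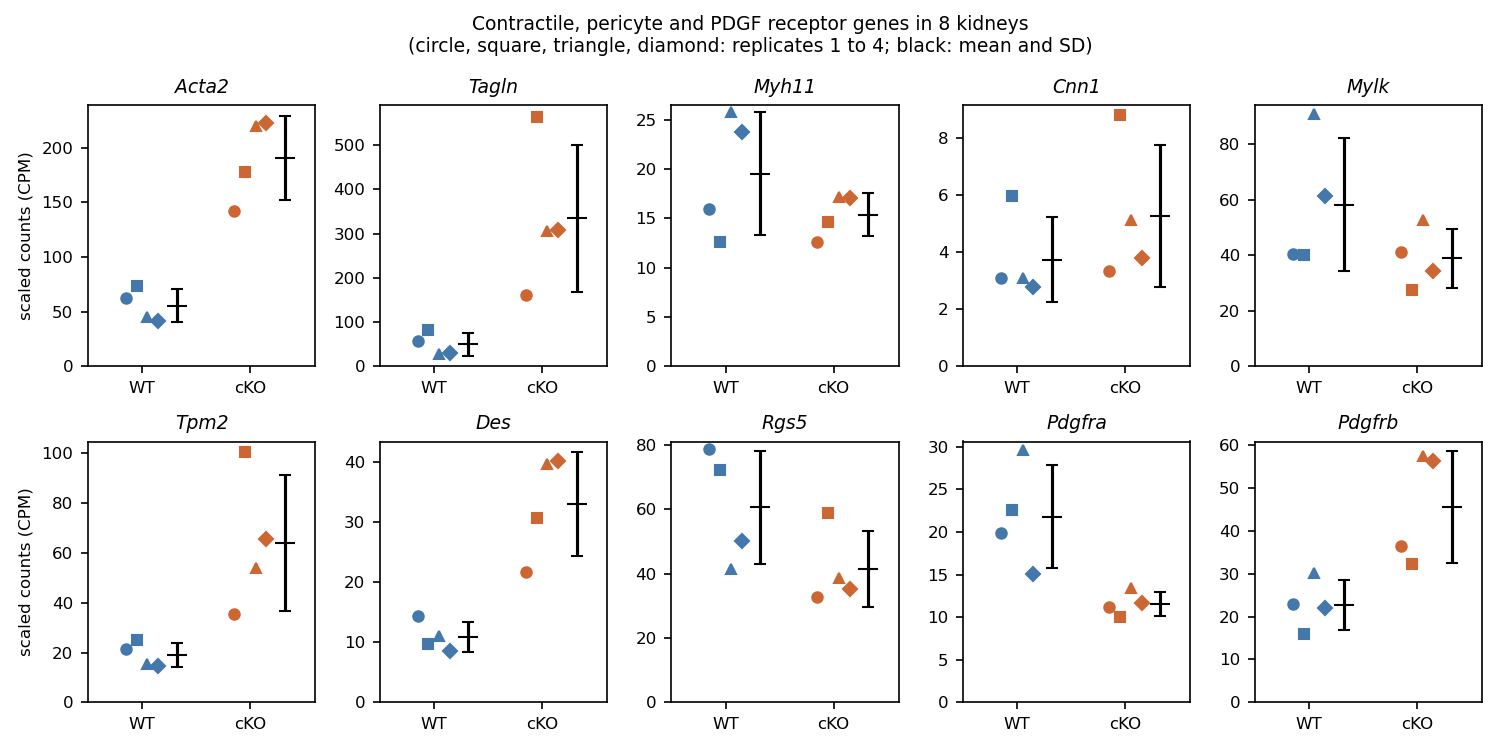
Scaled counts (CPM, vertical axes starting at 0) of the 10 genes in the 4 WT and 4 cKO libraries, 1 point a library, with the mean and SD of each group in black. Acta2, Tagln, Tpm2, Des and Pdgfrb are higher in every cKO library than in any WT library, Pdgfra is lower, and the groups overlap for Myh11, Cnn1, Mylk and Rgs5.

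Among the genes of the actin filament, Acta2, which encodes smooth muscle alpha actin, held 62.1, 73.9, 45.4 and 41.3 CPM in WT replicates 1 to 4, and 142, 178, 220.0 and 223 CPM in cKO replicates 1 to 4. The lowest cKO library lay well above the highest WT library, and cKO 3 and cKO 4 were the highest of all. Acta2 (ENSMUSG00000035783, mm10 chromosome 19, 34241090 to 34255590) rose 3.43-fold, from 55.7 ± 15.1 to 191 ± 38.3 CPM (SD, n = 4), which is 1.78 on the log2 scale (SE 0.25, 95% interval 1.23 to 2.33, edgeR adjusted p = 0.00108). The sex term left it at 1.79 (edgeR adjusted p = 0.0038). It was 1.54 among libraries without Y-linked reads, which did not pass (edgeR adjusted p = 0.187), and 2.04 among those with them. Each of these contrasts rests on a single library on one side, WT 1 in the first and cKO 3 in the second.

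Tagln, which encodes the actin-binding protein transgelin (SM22-alpha), held 58.1, 82.4, 27.7 and 31.4 CPM in WT replicates 1 to 4, and 161, 562, 305 and 309 CPM in cKO replicates 1 to 4. It had the widest spread of the group relative to its mean in both genotypes (an SD of 51.3% of the mean in WT), and the 2.5-month animal was the highest in each. Tagln (ENSMUSG00000032085, chromosome 9, 45929619 to 45936058) rose 6.71-fold, from 49.9 ± 25.6 to 334 ± 167 CPM, which is 2.75 on the log2 scale (SE 0.44, 95% interval 1.78 to 3.71, edgeR adjusted p = 0.0023). Leaving out 1 library at a time gave log2 fold changes from 2.37 (without cKO 2) to 3.09 (without WT 2), and the call held in all 8 cases. Fitted with sex, the value was 2.63 (edgeR adjusted p = 0.00802).

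Tpm2, which encodes beta tropomyosin, the coiled coil that lies along the actin filament, held 21.4, 24.9, 15.5 and 14.7 CPM in WT replicates 1 to 4, and 35.6, 100.3, 53.8 and 65.5 CPM in cKO replicates 1 to 4. As for Tagln, cKO 2 was the highest and cKO 1 the lowest of the cKO libraries. Tpm2 (ENSMUSG00000028464, chromosome 4, 43514711 to 43523765) rose 3.34-fold, from 19.1 ± 4.86 to 63.8 ± 27.3 CPM, which is 1.74 on the log2 scale (SE 0.31, edgeR adjusted p = 0.00419). After adding sex it was 1.601 (edgeR adjusted p = 0.0216), and without the replicate 4 pair 1.59, which no longer passed (edgeR adjusted p = 0.0562).

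Cnn1 (ENSMUSG00000001349, chromosome 9, 22099216 to 22109630), which encodes calponin 1, an actin-binding inhibitor of myosin that marks differentiated smooth muscle, was the least abundant of the group in WT, on 36 to 52 counts a library there and 55 to 81 in cKO. It held 3.11, 5.97, 3.10 and 2.78 CPM in WT replicates 1 to 4, and 3.36, 8.81, 5.12 and 3.79 CPM in cKO replicates 1 to 4. The groups overlapped, and the 2.5-month animal was the highest in each of them. On the log2 scale the difference was 0.49 (95% interval -0.34 to 1.33, edgeR adjusted p = 0.39), and with a sex term 0.57 (edgeR adjusted p = 0.553).

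On the motor side, Myh11 encodes the smooth muscle myosin heavy chain and is the most specific marker of mature smooth muscle in the group. It held 15.96, 12.6, 25.8 and 23.7 CPM in WT replicates 1 to 4, and 12.6, 14.7, 17.1 and 17.1 CPM in cKO replicates 1 to 4. The cKO libraries all lay within the WT range, cKO 1 at its very bottom, and their spread was narrower. The log2 fold change of Myh11 (ENSMUSG00000018830, chromosome 16, 14194535 to 14291372) was -0.35 (SE 0.26, 95% interval -0.90 to 0.21, edgeR adjusted p = 0.368). With a sex term it was -0.19 (edgeR adjusted p = 0.779).

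Mylk (ENSMUSG00000022836, chromosome 16, 34745210 to 35002420) encodes myosin light chain kinase, which switches on smooth muscle myosin, and the same locus also encodes the short smooth muscle protein telokin, which a total over the gene does not separate. It held 40.6, 39.9, 90.8 and 61.4 CPM in WT replicates 1 to 4, and 41.3, 27.6, 52.6 and 34.4 CPM in cKO replicates 1 to 4. WT 3 was the highest and cKO 2 the lowest, and the groups overlapped. The log2 fold change was -0.58 (SE 0.30, 95% interval -1.23 to 0.08, edgeR adjusted p = 0.2), and with a sex term it was -0.26 (edgeR adjusted p = 0.694).

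Des encodes desmin, the intermediate filament of muscle cells, which in the kidney marks mesangial cells, pericytes and injured podocytes. It held 14.3, 9.64, 11.02 and 8.54 CPM in WT replicates 1 to 4, and 21.7, 30.6, 39.5 and 40.1 CPM in cKO replicates 1 to 4. The groups did not overlap, and cKO 1 was again the lowest cKO library, as for Acta2, Tagln and Tpm2. Des (ENSMUSG00000026208, chromosome 1, 75360329 to 75368579) rose 3.03-fold, from 10.9 ± 2.51 to 33.0 ± 8.71 CPM, which is 1.599 on the log2 scale (SE 0.26, edgeR adjusted p = 0.00228). It was 1.57 with a sex term (edgeR adjusted p = 0.00768). It was 1.10 among libraries without Y-linked reads, which did not pass (edgeR adjusted p = 0.329), and 2.02 among those with them, and the difference between these 2 contrasts had an edgeR p of 0.131 (adjusted p = 1).

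Rgs5 (ENSMUSG00000026678, chromosome 1, 169655501 to 169695813), a regulator of G protein signalling that is among the most used pericyte markers, held 78.7, 72.2, 41.5 and 50.3 CPM in WT replicates 1 to 4, and 32.8, 58.8, 38.8 and 35.3 CPM in cKO replicates 1 to 4. Of the cKO libraries 3 lay below all of WT, while cKO 2, the 2.5-month animal, lay within the WT range. The log2 fold change was -0.55 (SE 0.26, 95% interval -1.13 to 0.03, edgeR adjusted p = 0.17), and with a sex term -0.70 (edgeR adjusted p = 0.207).

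The 2 receptors for platelet-derived growth factors went in opposite directions. Pdgfrb, the pericyte and mesangial receptor, held 22.9, 15.8, 30.1 and 22.1 CPM in WT replicates 1 to 4, and 36.4, 32.3, 57.4 and 56.1 CPM in cKO replicates 1 to 4. The gap between the groups was small, with cKO 2 just above WT 3. Pdgfrb (ENSMUSG00000024620) rose 2.00-fold, from 22.7 ± 5.85 to 45.6 ± 13.1 CPM, which is 1.00 on the log2 scale (SE 0.26, 95% interval 0.43 to 1.57, edgeR adjusted p = 0.0241), and with a sex term it was 1.10 (edgeR adjusted p = 0.0484). Without WT 2, WT 4, cKO 3 or cKO 4 the call was lost, at log2 fold changes of 0.86, 0.99, 0.87 and 0.89 and edgeR adjusted p values of 0.0571, 0.0688, 0.068 and 0.08.

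Pdgfra, the receptor that marks resident interstitial fibroblasts, held 19.9, 22.6, 29.6 and 15.1 CPM in WT replicates 1 to 4, and 11.2, 10.01, 13.4 and 11.7 CPM in cKO replicates 1 to 4. Every cKO library lay below every WT library, and the cKO spread was narrow. Pdgfra (ENSMUSG00000029231, chromosome 5, 75152292 to 75198215) fell by 0.91 on the log2 scale (SE 0.24, edgeR adjusted p = 0.0239), from 21.8 ± 6.08 to 11.6 ± 1.398 CPM. The call was lost with a sex term (-0.80, edgeR adjusted p = 0.123), with scaling by library size alone (-0.76, edgeR adjusted p = 0.065) and without WT 3, cKO 1, cKO 2 or cKO 4 (edgeR adjusted p values of 0.0709, 0.0526, 0.0553 and 0.067). The log2 fold change of Pdgfra stayed between -1.05 and -0.73 over the 8 leave-one-out fits.

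**Figure D2:**
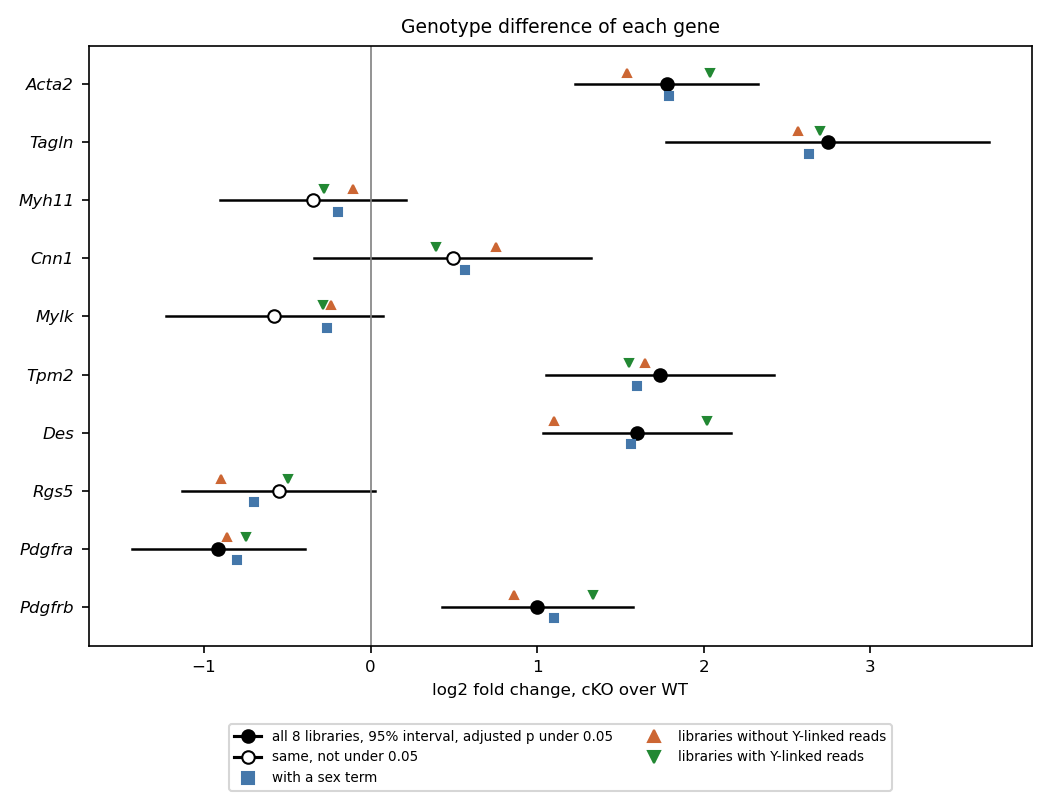
Log2 fold change of each gene, cKO over WT, with the 95% interval from all 8 libraries (filled circle where the adjusted p was under 0.05), and the values with a sex term and within the libraries without and with Y-linked reads. The intervals of Acta2, Tagln, Tpm2, Des and Pdgfrb lie above 0, that of Pdgfra below, and all 4 estimates of every gene have the same sign.

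Levels of different genes can be set side by side only per length, here as CPM per kilobase of merged exons. Merged exons take in every annotated transcript of a gene, 11263 bases for Mylk, whether or not it is used here. The order is therefore approximate. In WT kidneys Acta2 (25.4 ± 6.90) and Tagln (25.1 ± 12.9) led and could not be told apart by their spread. Rgs5 followed at 13.3 ± 3.88, overlapping Tagln, and its lowest library lay above the highest library of the next gene, Tpm2, at 6.58 ± 1.67. From Tpm2 down through Mylk, Pdgfrb, Des, Myh11 and Pdgfra to Cnn1 at 1.37 ± 0.546, each gene overlapped its neighbour. In cKO kidneys Tagln (168 ± 84.0) and Acta2 (86.9 ± 17.5) overlapped each other and stood above all others, and Tpm2 (21.9 ± 9.37) had a higher mean than Rgs5 (9.11 ± 2.60), although their libraries overlapped. Pdgfra had the lowest mean in cKO, 1.15 ± 0.139 (SD, n = 4), and overlapped Cnn1.

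Ratios of 2 genes within a library do not depend on the scaling between libraries. The pairs below were chosen after the values were seen and are given as a description. There were 3.89, 5.86, 1.76 and 1.74 Acta2 counts for each Myh11 count in WT replicates 1 to 4, and 11.3, 12.1, 12.8 and 13.0 in cKO replicates 1 to 4. This ratio was nearly constant in cKO (12.3 ± 0.806), varied in WT (3.31 ± 1.97), and did not overlap between the groups. The ratio of Pdgfrb to Pdgfra counts went from 1.08 ± 0.316 to 3.90 ± 0.782, again without overlap. That of Des to Rgs5 counts went from 0.188 ± 0.0559 to 0.834 ± 0.291, also without overlap. Among the other pairs computed, Pdgfrb to Rgs5 and Tpm2 to Tpm1 overlapped between the groups and the rest did not.

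**Figure D3:**
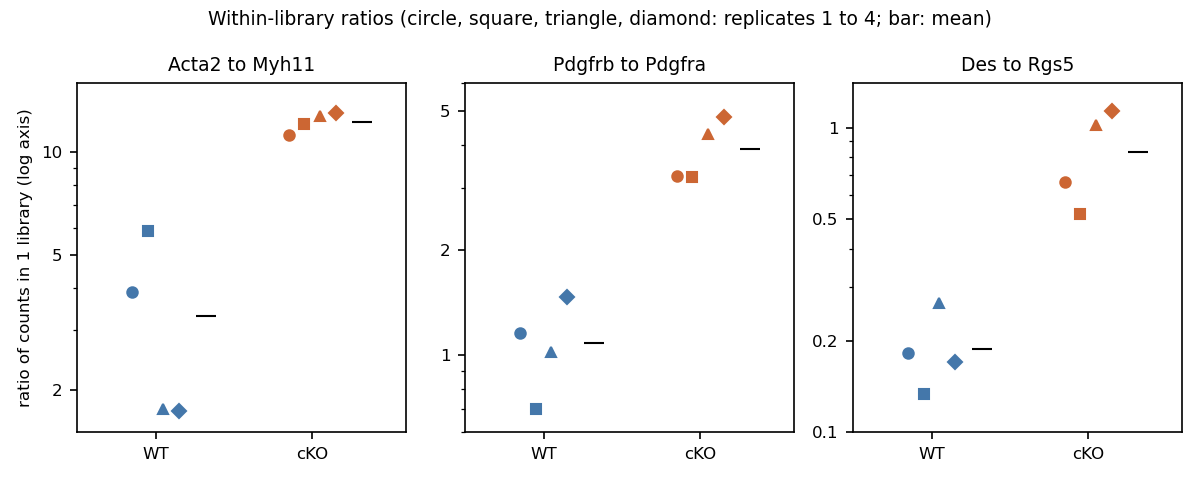
Ratio of the counts of 2 genes in the same library (log axes) for Acta2 to Myh11, Pdgfrb to Pdgfra and Des to Rgs5, 1 point a library, with the group mean as a bar. In each panel the 4 cKO libraries lie above the 4 WT libraries, and the Acta2 to Myh11 ratio spans 11.3 to 13.0 in cKO.

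Within genotypes the 10 genes did not vary as 1 block. Deviations of log2 CPM from the genotype mean were correlated over the 8 libraries, which leaves few free values and shares library, sex and age between the points. After these values were seen, Acta2, Tagln, Tpm2, Cnn1 and Rgs5 were set together, with Pearson r from 0.468 to 0.951 in their 10 pairs, and Myh11, Mylk and Pdgfrb, with r from 0.697 to 0.758. Between these 2 sets the 15 values ran from -0.847 (Mylk and Rgs5) to 0.00416 (Acta2 and Pdgfrb). The tightest pair was Tagln and Tpm2, at 0.951. The genes outside the group most like the mean deviation of the 6 contractile members Acta2, Tagln, Myh11, Cnn1, Mylk and Tpm2 were Ovca2 (r = 0.974), Tmcc2 (0.94), the thrombin receptor F2r (0.94), Cd248 (0.918), which encodes the stromal protein endosialin, Cenpp (0.917), the channel Trpv2 (0.916), Cd63-ps (0.915) and Nupr1l (0.911). That mean follows some members more than others: Tagln, Cnn1 and Tpm2 had r of 0.875, 0.864 and 0.902 with it and Acta2 0.68, whereas Myh11 had -0.138 and Mylk -0.389. Of the 8 genes F2r, Cd248 and Trpv2 also rose in cKO, by 1.74, 2.13 and 1.68 on the log2 scale (edgeR adjusted p of 0.000772, 0.000622 and 0.0072). Of all tested genes 9.57% were called higher. The 8 were picked as the highest r in a search through the tested genes. How high such values run by chance over 8 libraries was not tested.

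The wider contractile apparatus was described with a list of 20 genes that holds the 6 contractile members, all of them tested. Of these 9 rose and 11 did not pass, and the median log2 fold change was 0.65. For this list and those below, 9.57% of all tested genes were called higher and 7.14% lower. The shares were 5.17% and 1.63% with a sex term. Without the replicate 4 pair 417 genes were called higher and 151 lower, of 13865 tested. Without the 2.5-month pair these were 971 and 426, of 13973 tested. The actin cross-linker Flna rose from 58.9 ± 9.16 to 178 ± 31.3 CPM (edgeR adjusted p = 0.000799) and the calponin isoform Cnn2 from 18.2 ± 3.23 to 48.1 ± 6.49 CPM (edgeR adjusted p = 0.00119). Of the 20, 7 were called higher with a sex term and 4 without the replicate 4 pair. Of the 14 genes of this list outside the group of 10, 6 rose.

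Among regulators tied to SRF and the myocardin family, 3 of 10 tested genes rose and 1 fell. Since 7.14% of all tested genes were called lower, 1 lower gene in 10 is close to that share. The coactivator gene Myocd was too low to test, at 0.0653 to 0.459 CPM. The smooth muscle LIM protein Csrp1 rose from 81.5 ± 36.6 to 232 ± 59.3 CPM (edgeR adjusted p = 0.0119) and Klf4, a repressor of smooth muscle genes, from 5.08 ± 1.31 to 14.2 ± 4.72 CPM (edgeR adjusted p = 0.00755). The focal adhesion gene Zyx rose by 1.04 on the log2 scale (edgeR adjusted p = 0.0224), a call lost with a sex term or without WT 2, WT 4 or cKO 4. The LIM protein Fhl1 fell by 1.59 (edgeR adjusted p = 0.00458), and with a sex term stood at -1.15 without passing. It was -0.50 among the libraries lacking Y-linked reads but -1.79 among the other 4, and WT 1 held 111 CPM against 267 to 298 CPM in the other WT libraries. The difference between these 2 contrasts had an edgeR p of 0.0296 (adjusted p = 1). Without the replicate 4 pair Fhl1, Klf4, Csrp1 and Zyx each missed the threshold (edgeR adjusted p of 0.0584, 0.0809, 0.108 and 0.134). The mRNA of Srf itself had a log2 fold change of 0.20 (edgeR adjusted p = 0.634).

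Of 4 tested intermediate filament genes of mesenchyme 3 rose, Des, Vim and Nes, and Sync was too low to test. Vimentin, Vim, went from 30.9 ± 4.79 to 209 ± 55.7 CPM (edgeR adjusted p = 7.54e-05) and nestin, Nes, from 14.5 ± 5.23 to 38.9 ± 2.71 CPM (edgeR adjusted p = 0.00447). Without the replicate 4 pair 2 were called, with Nes at an edgeR adjusted p of 0.0591, and within libraries without Y-linked reads 1 was.

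The pericyte and mesangial markers split. Of 15 tested, 6 rose, 3 fell and 6 did not pass, and Higd1b was too low to test. The adhesion molecule Mcam rose from 10.7 ± 1.16 to 28.1 ± 6.66 CPM (edgeR adjusted p = 0.00235) and the receptor Notch3 from 6.60 ± 0.841 to 17.2 ± 3.05 CPM (edgeR adjusted p = 0.00238). Kcnj8, a subunit of the pericyte ATP-sensitive potassium channel, fell from 12.3 ± 4.12 to 2.98 ± 1.04 CPM, by 2.06 on the log2 scale (edgeR adjusted p = 0.0019). Renin, Ren1, made by juxtaglomerular cells of the same stromal lineage, fell from 82.2 ± 38.1 to 8.34 ± 6.29 CPM (edgeR adjusted p = 0.00429). Anpep, which is also an enzyme of the proximal tubule brush border, fell by 1.202 on the log2 scale (edgeR adjusted p = 0.0285), a call lost with a sex term. Of the 15, 5 were called higher and 2 lower with a sex term, and 2 and 2 without the replicate 4 pair.

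Of the 8 genes of platelet-derived growth factor signalling, 3 rose, 1 fell and 4 did not pass. The 1 that fell stands beside 7.14% of all tested genes called lower. The ligand genes Pdgfa and Pdgfb rose, from 9.06 ± 1.37 to 19.1 ± 5.61 CPM (edgeR adjusted p = 0.0143) and from 15.2 ± 0.866 to 33.3 ± 13.0 CPM (edgeR adjusted p = 0.0177). The call of Pdgfa was lost with a sex term and without the 2.5-month pair, and that of Pdgfb without cKO 4, where 1 gene of the list was called. Without the replicate 4 pair Pdgfra, Pdgfb, Pdgfa and Pdgfrb each missed the threshold (edgeR adjusted p of 0.0562, 0.138, 0.145 and 0.185).

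Of 12 tested myofibroblast and activated fibroblast genes 11 rose. Their median was 2.16 on the log2 scale, and Fap and Cthrc1 were too low to test. Fibrillar collagen Col1a1 went from 11.3 ± 5.80 to 94.8 ± 34.4 CPM and Col1a2 from 38.8 ± 12.4 to 167 ± 30.1 CPM (edgeR adjusted p = 0.000536 for both), and Col3a1 and the matrix protein gene Fn1 rose by 2.99 and 2.67 on the log2 scale. Of the 12, 10 were called with a sex term and 8 without the replicate 4 pair. Of 14 tested genes of resident fibroblasts, 5 rose and 4 fell, with a median of -0.57. Pi16 rose from 4.51 ± 0.583 to 23.3 ± 5.41 CPM (edgeR adjusted p = 0.000194), whereas the chemokine Cxcl12 fell with Pdgfra, from 140.0 ± 38.5 to 59.6 ± 17.1 CPM (edgeR adjusted p = 0.0124), a call lost with a sex term, without cKO 4 or without the 2.5-month pair. The microfibril gene Mfap5 rose by 2.58 on the log2 scale and the proteoglycan gene Dcn by 1.21. Both missed the threshold without the replicate 4 pair (edgeR adjusted p of 0.0706 and 0.153) and within either set of libraries split by Y-linked reads. Dcn also missed it with a sex term and without WT 4, cKO 4 or the 2.5-month pair. Of these 14 genes 2 were called with a sex term, both higher, and 3 without the 2.5-month pair, all higher. Without the replicate 4 pair 1 was called higher and 2 lower. Over all genes calls also fell, from 1323 higher to 715, 971 and 417 in these settings. Those called lower went from 987 to 226, 426 and 151. The median of the list stayed negative, at -0.61, -0.38 and -0.69.

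Of 16 genes of transforming growth factor beta signalling, the main inducer of Acta2 in fibroblasts, 7 rose and 9 did not pass. The ligand Tgfb3 rose from 1.79 ± 0.422 to 8.34 ± 1.78 CPM (edgeR adjusted p = 0.000824). Ltbp2, of a gene family named for latent TGF-beta binding, rose from 0.114 ± 0.154 to 17.0 ± 6.14 CPM (edgeR adjusted p = 6.82e-05). Whether its product binds TGF-beta was not tested. The matricellular gene Ccn1 rose by 1.64 on the log2 scale. Of the 16, 6 were called higher with a sex term and 5 without the replicate 4 pair.

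**Figure D4:**
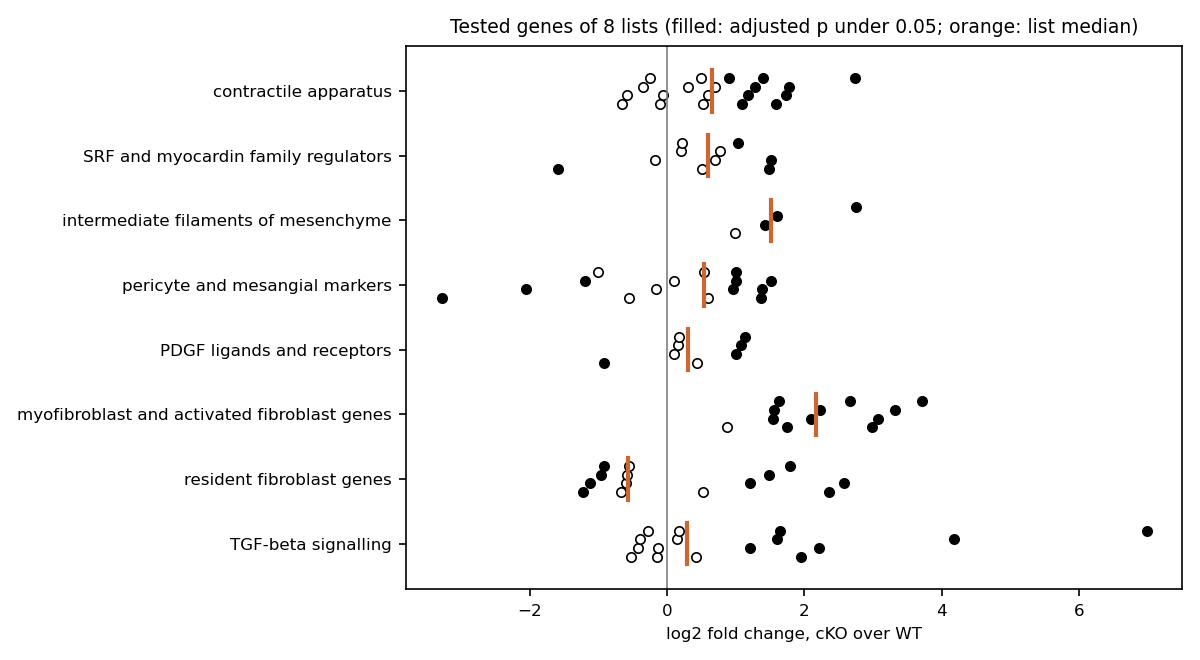
Log2 fold change, cKO over WT, of every tested gene in 8 lists (rows), filled where the adjusted p was under 0.05, with the list median in orange. Filled points lie on both sides of 0 for pericyte and mesangial markers, resident fibroblast genes, platelet-derived growth factor genes and SRF regulators, and on the right alone for the others.

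Markers of other cell types were summed in each library, since desmin, actin and tropomyosin are shared between tissues. The numbers of markers called stand beside 9.57% of all tested genes called higher and 7.14% lower. Urothelial markers, the lining of the renal pelvis whose wall holds smooth muscle, summed to 22.3 to 106 CPM in WT and 104 to 173 CPM in cKO, and 5 of 9 rose. Genes of visceral smooth muscle, a list that holds Des, Myh11 and Cnn1, summed to 43.2 to 55.8 CPM in WT and 50.5 to 76.8 CPM in cKO. Of this list 1 rose, Des, which alone went from a mean of 10.9 to 33.0 CPM. Chrm3 fell, from 3.09 ± 0.514 to 1.06 ± 0.643 CPM (edgeR adjusted p = 0.0383), and the others did not pass. Actg2, the actin of visceral smooth muscle, held 0.854 to 3.44 CPM over all libraries and had a log2 fold change of -0.25 (edgeR adjusted p = 0.73). Skeletal muscle markers were at 18.1 to 86.2 CPM in WT, with WT 1 the highest, and 14.5 to 33.2 CPM in cKO. Macrophage markers were at 107 to 213 CPM in WT and 418 to 773 CPM in cKO, and 8 of 9 rose. Lyz2 alone went from a mean of 41.6 to 318 CPM. The exception, Csf1r, was lower in cKO without passing, at 53.7 ± 12.2 CPM in WT and 34.5 ± 13.2 CPM in cKO (edgeR adjusted p = 0.156). Proximal tubule markers fell in 3 of 7 cases, and cKO 2, the highest library for Tagln, Tpm2 and Cnn1, had their lowest sum, 2506 CPM against 4378 to 7166 in the other cKO libraries. Cardiac muscle markers, of which 1 of 6 could be tested, summed to 0.653 to 4.49 CPM in WT and 2.01 to 6.46 CPM in cKO. The tested one, the troponin gene Tnnt2, was at 0 in WT 1, WT 2 and WT 3 and 0.194 CPM in WT 4, and rose to between 1.46 and 5.48 CPM in cKO (edgeR adjusted p = 0.00127). Adipocyte markers summed to 36.1 to 132 CPM in WT and 41.3 to 245.5 CPM in cKO. Podocyte markers summed to 195 to 362 CPM in WT and 120.1 to 287 CPM in cKO. Endothelial markers summed to 368 to 519 CPM in WT and 329 to 507 CPM in cKO, with Kdr and Tek lower and Eng higher. No marker of these lists was at 0 in all 8 libraries. The part of these cell types in the differences of the 10 genes was not tested.

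**Figure D5:**
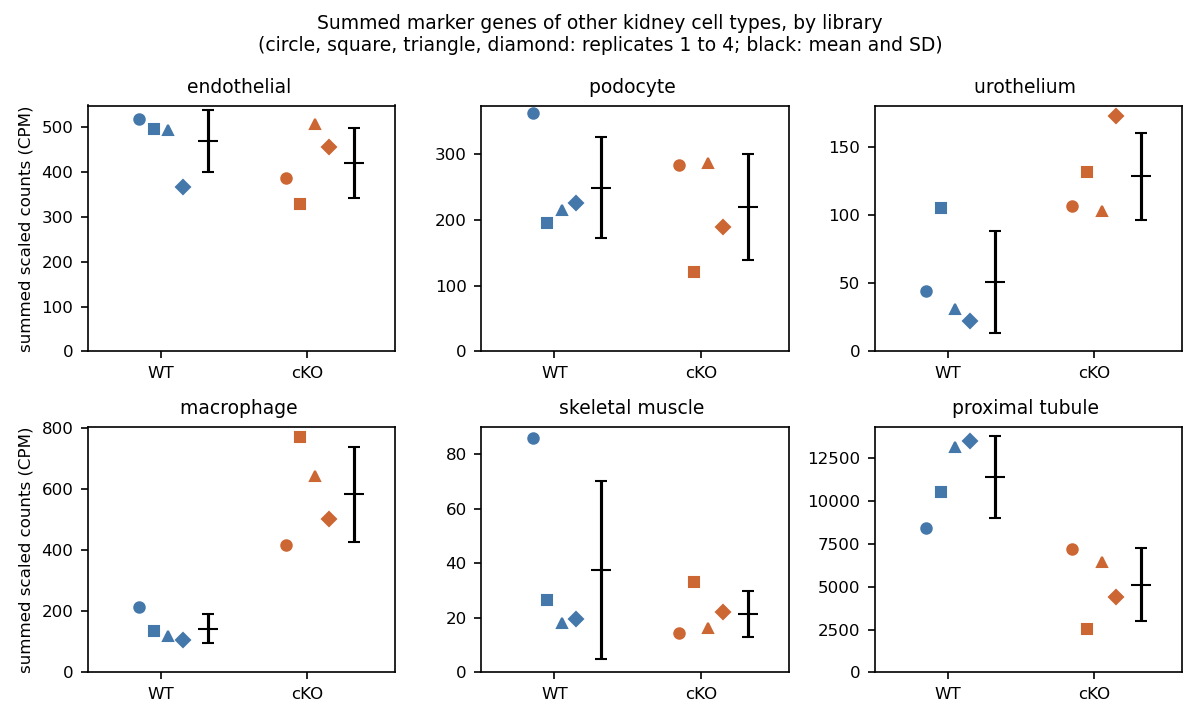
Summed CPM of marker genes of 6 other cell types, 1 point a library, with mean and SD in black (vertical axes start at 0). Macrophage sums are higher and proximal tubule sums lower in every cKO library, and endothelial, podocyte and skeletal muscle sums overlap between the genotypes.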

How the data were processed

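Kidney RNA of 4 WT and 4 cKO mice was measured as stranded, polyadenylated RNA libraries, per the labels. The authors used STAR and RSEM on mm10, per the submitters' processing notes, and for versions, annotation release and strand setting the sources used here give nothing. The deposited values are expected counts per Ensembl gene, not scaled, and all values of the 10 genes were whole. Symbols and positions of 47224 of 47643 identifiers came from GENCODE M21, and promoters from RefSeq.

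Expected counts were rounded, filtered with filterByExpr and scaled by TMM. Genotypes were compared with edgeR's quasi-likelihood test (robust, two-sided) and Benjamini-Hochberg adjustment over 13829 genes, called under 0.05. SD is over 4 libraries, and SE is the log2 fold change over the root of F. P-values measure the spread between these animals, whose litters are not given. Of the 50-base stretches of the 10 genes' transcripts, at most 0.34% occur in another gene. Libraries with at least 10 Y-linked counts were taken as bearing a Y chromosome. The steps were tested on simulated data. The software was Python 3.11.15 and R 4.3.3, with DESeq2 1.42.0, edgeR 4.0.16 and limma 3.58.1.

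The members and lists were chosen with earlier results of these data known. Genes were named by rule: the 10 members, Cox10, actin paralogs, marker genes, up to 4 called genes with the smallest adjusted p in each list, and the 8 genes most like the contractile members with at least 1 CPM. A gene that this rule names is not reported here. Others are named as too low to test or after their values were seen (Srf, Anpep, Tpm1). Alternatives were other scalings, filters, tools, thresholds and rounding, age and sex terms, a replicate block, contrasts within each sex, and leaving out single libraries or pairs.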

Additional observations from a re-analysis of the deposited data

Results flagged for a closer look

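Cnn1 in WT kidneys had 1 library far from the others. WT 2, a 2.5-month animal, held 5.97 CPM and the other 3 held 2.78 to 3.11 CPM, a gap of 0.898 of the whole range. Of 22 groups checked (11 genes in 2 genotypes) it was the only one marked, where chance marks about 1 in 20. WT 2 was also the highest WT library for Acta2, Tagln and Tpm2.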

How the results depend on the processing

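No setting turned the sign of any of the 10 genes. The calls of Acta2, Tagln and Des were lost in 1 setting each, the contrast within libraries without Y-linked reads. The 2310 genes called became 798 and 3526 at thresholds of 0.01 and 0.1, 941 with a sex term, 120 and 480 within libraries without and with Y-linked reads, 1397 without the 2.5-month pair and 568 without the replicate 4 pair, and 1155 (without cKO 4) to 3093 (without WT 1) with 1 library left out. WT 3 and WT 4 took it to 1438 and 1288. The 5 members called higher became 0 and 3 within libraries without and with Y-linked reads, 3 without the replicate 4 pair, and 4 to 5 with 1 library left out. The 1 member called lower became 0 at a threshold of 0.01, with library size scaling, a sex term, within either set of libraries and without either pair, and 0 to 1 with 1 library left out. The log2 fold change of Cox10, -0.19, turned to 0.0724 within libraries with Y-linked reads and ran from -0.29 to -0.01 with 1 library left out. The causes were not tested. A replicate block gave 2208 genes and the same 5 and 1 member counts. Same-number correlations ran from -0.08 to 0.28, and 1 of 4 WT libraries correlated best with its own number, so the numbers were not taken as pairs. Counts of 36 to 81 for Cnn1 limit its precision.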

Other observations

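Other actin genes were read for comparison with Acta2. The cytoplasmic actin Actb rose from 429 ± 49.4 to 757 ± 150 CPM (edgeR adjusted p = 0.0422), a call lost with a sex term at a log2 fold change of 0.82 in both fits (edgeR adjusted p = 0.121). Its counts were fractional in 7 of 8 libraries, so some of its reads were shared with related sequences. Actg1, the other cytoplasmic actin, had a log2 fold change of 0.63 (edgeR adjusted p = 0.125) and the skeletal actin Acta1 one of -0.60 (edgeR adjusted p = 0.448). Acta1 was highest in WT 1, at 14.7 CPM against 2.45 to 5.05 in the other WT libraries. The cardiac actin Actc1 had 1 to 3 counts a library and was not tested.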
